A study of Mus musculus with 12 samples.

Results

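The genes described here are 37 mouse genes of glycolysis, gluconeogenesis and glycogen metabolism together with their nearest regulators, read out by RNA sequencing of whole liver. They were chosen by a list of gene symbols, each matched to the name column of the deposited tables, a rule that uses no measured value, but the list was drawn up with earlier results of these data known. They make up 37 of the 48440 genes in the tables. By role, 5 act in gluconeogenesis, 7 in glycogen metabolism, 6 in glucose or fructose entry and phosphorylation, and 12 in glycolysis. A further 3 are bifunctional kinases that set fructose 2,6-bisphosphate, 2 are pyruvate dehydrogenase kinases and 2 carry hormone signals. Male C57BL/6 mice, 8 weeks old, received chow, which the labels call random feeding, in a cycle of 12 h light and 12 h dark. Livers were taken at ZT2 or ZT14 (zeitgeber time, in hours after lights on) from wild-type mice (WT) or from transgenic mice (TG) that overexpress E4BP4 in liver only, with 3 libraries in each of the 4 groups. The labels name no other allele or treatment in any group. No source used here gives the transgene's promoter or construct, and the labels leave unsaid whether each sample is its own animal. All p-values below therefore measure only the spread between these samples.

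The liver stores glucose as glycogen after feeding, breaks it down or makes new glucose between meals, and burns or diverts sugar through glycolysis when carbohydrate is plentiful. Glycolysis and gluconeogenesis share most of their enzymes and differ at a few one-way steps, where hormone signals, fructose 2,6-bisphosphate and the feeding rhythm act. E4BP4, the product of Nfil3, is a basic leucine zipper repressor of the circadian output pathway that binds D-box elements. Mice eat mostly in the dark, so ZT2 follows the nightly meal and ZT14 lies near the start of the next.

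Each library held 16035121 to 23981021 total gene reads, of which 81.2% to 85.5% mapped uniquely and 9.79% to 11.9% fell in introns. Nfil3 checks the transgene. Its level at ZT2 was 48.8, 29.4 and 37.6 CPM (a gene's reads scaled to the size of its library) for WT against 71.1, 69.8 and 62.6 CPM for TG. At ZT14 it was 28.1, 40.4 and 24.6 CPM against 63.8, 93.9 and 77.9 CPM. Every TG library lay above every WT library of its time. By edgeR's quasi-likelihood test the log2 fold change was 0.81 ± 0.21 (SE) at ZT2 (adjusted p = 0.359) and 1.34 ± 0.21 at ZT14 (adjusted p = 0.0306). All 8 hepatocyte markers had reads in each of the 12 libraries and summed to 68760 to 85020 CPM. In the second principal component, replicate 2 of the TG group at ZT2 stood at -21.93 and replicate 3 of the TG group at ZT14 at -25.86, against 1.62 to 7.85 for the other 10 libraries. In bulk tissue, fewer cells of a type and less RNA per cell cannot be told apart.

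Levels between genes were compared on the deposited TPM values, which are scaled to transcript length. Fbp1, the fructose-1,6-bisphosphatase of gluconeogenesis, had the highest mean over the 12 libraries, 1036 TPM with a range of 738 to 1458. Pck1, the cytosolic PEP carboxykinase, followed at 791 TPM (441 to 1529). Lactate dehydrogenase A (Ldha, 404), ketohexokinase of fructose breakdown (Khk, 403) and phosphoglycerate kinase (Pgk1, 335) came next. The lowest were Hk1 at 1.26 TPM and Hk2 at 0.767 TPM, hexokinases better known from muscle and brain, and Ppp1r3g, a glycogen-targeting subunit, at 0.240 TPM. Of the 36 pairs of neighbours in this order, 35 had overlapping ranges over the 12 libraries. The exception was Slc2a1 (6.35 to 10.1 TPM), the transporter GLUT1, above Pfkfb2 (2.78 to 6.12 TPM). These ranges pool the 4 groups and do not compare neighbours within a library, so an overlap does not decide the order. Hk1, for one, lay above Hk2 in every library.

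**Figure D1:**
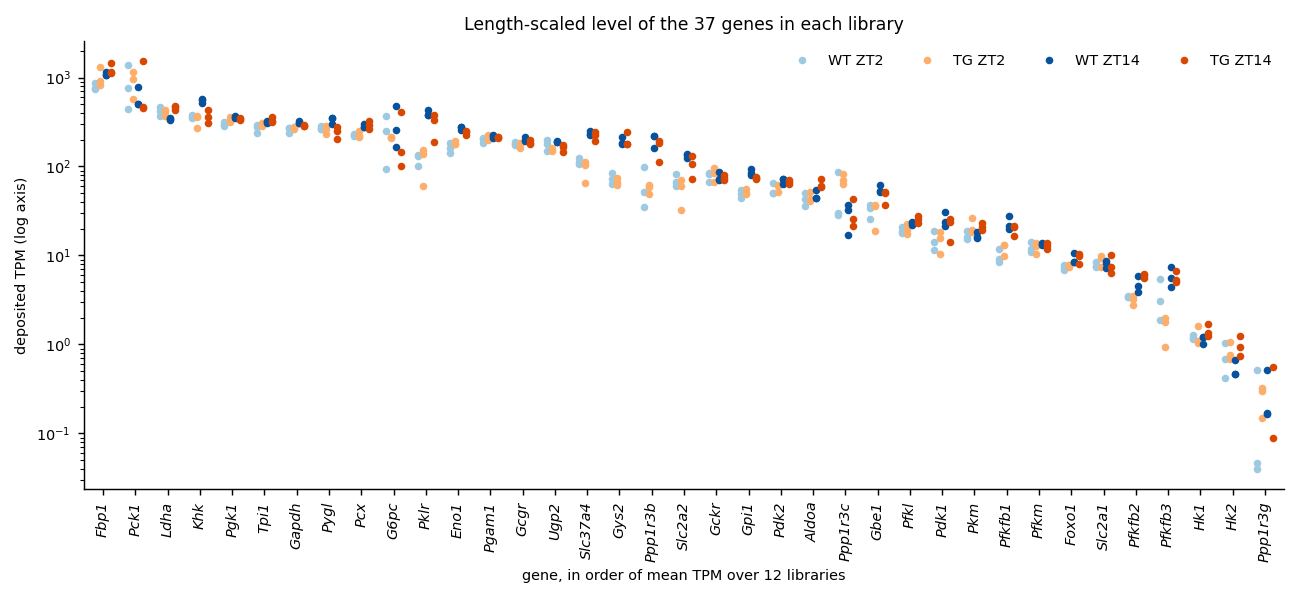
Deposited TPM (log axis) of the 37 genes in each of the 12 libraries, ordered by mean TPM and coloured by group, with 1 Ppp1r3g value of 0 not drawn. Fbp1 has the highest mean at 1036 TPM and Ppp1r3g the lowest at 0.240 TPM, and Pck1 ranges from 441 to 1529 TPM.

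Some members have near copies or overlapping genes, and their counts are less certain for it. Only 12.0% of Gapdh reads, 12.8% of Pgk1 reads and 11.2% of Pfkfb2 reads were unique, and 6 of the 37 members had fewer than 60% unique reads, against 12.2% of 14457 genes with at least 120 reads. At the other end, 20 members had at least 99% unique reads. In the deposited coordinates 21 members overlap another gene, but in only 3 did the other gene hold more than 10% as many reads as the member: Pfkfb1 (with Apex2), Pfkfb2 (with Gm29427) and Pfkm (with Senp1). That share is of all reads of the member, and intron reads are fewer. Gapdh had 1313 intron reads beside 2687 reads of Iffo1, Tpi1 355 beside 2433 of Spsb2, and Pklr 3150 beside 8076 of Hcn3. No source used here says whether reads were counted by strand.

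Promoter windows from RefSeq (build GRCm38.p6, the 250 bases before each annotated start) were found for 35 of the 37 genes, 58 windows in all. They are shown for the genes that changed with time and hold a match to an element known from clock or sugar control, and for the only member with an E4BP4-type element. Searched on both strands were the E-box CACGTG, read by CLOCK and BMAL1 among others, and the D-box TTATGTAA or TTACGTAA (TTATGTAA reads TTACATAA on the other strand). The other 2 were the cAMP response element TGACGTCA and the carbohydrate response element, taken here as CACGNG and CNCGTG with 5 bases between them. An E-box was present in 8 of the 58 windows and in 6.021% of all 32851 windows in the table. A D-box was present in 1 window, that of G6pc, and in 0.931% of all windows. The cAMP response element was present in 1 window, that of Ldha, and in 1.546% of all. The carbohydrate response element was present in 1 window, the liver-type start of Pklr, and in 0.04% of all. A match describes letters only, and these data hold no measurement of binding. Bases that GENCODE M21 annotates as exon were trimmed from the start-site end of each window, and capitals mark the matches, none of which overlaps another. The Pklr stretch is chr3:89136373-89136571 on the plus strand, with the carbohydrate response element in capitals.
Pklr: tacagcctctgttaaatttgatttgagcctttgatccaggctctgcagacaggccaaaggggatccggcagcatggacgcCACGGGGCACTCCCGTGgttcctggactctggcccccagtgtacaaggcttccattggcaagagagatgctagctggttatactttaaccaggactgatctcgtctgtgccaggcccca
The Ppp1r3c stretch is chr19:36736654-36736854 on the minus strand, with an E-box in capitals.
Ppp1r3c: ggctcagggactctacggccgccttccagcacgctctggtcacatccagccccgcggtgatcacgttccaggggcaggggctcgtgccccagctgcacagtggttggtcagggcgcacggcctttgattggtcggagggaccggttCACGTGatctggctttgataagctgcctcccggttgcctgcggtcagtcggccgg
The Pfkfb3 stretch is chr2:11502102-11502340 on the minus strand, with an E-box in capitals.
Pfkfb3: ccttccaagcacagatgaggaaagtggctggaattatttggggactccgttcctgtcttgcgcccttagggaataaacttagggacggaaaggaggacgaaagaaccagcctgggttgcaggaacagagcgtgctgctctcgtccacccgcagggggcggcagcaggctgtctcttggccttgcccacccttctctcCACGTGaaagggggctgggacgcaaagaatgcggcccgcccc
The Pfkfb2 stretch is chr1:130715822-130716071 on the minus strand, with an E-box in capitals.
Pfkfb2: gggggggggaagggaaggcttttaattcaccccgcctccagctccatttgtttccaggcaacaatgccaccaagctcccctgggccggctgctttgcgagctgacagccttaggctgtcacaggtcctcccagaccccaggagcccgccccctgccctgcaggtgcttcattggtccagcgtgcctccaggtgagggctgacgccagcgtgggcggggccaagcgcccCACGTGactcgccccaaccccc
The Ldha stretch is chr7:46845554-46845803 on the plus strand, with 2 E-boxes and then the cAMP response element in capitals.
Ldha: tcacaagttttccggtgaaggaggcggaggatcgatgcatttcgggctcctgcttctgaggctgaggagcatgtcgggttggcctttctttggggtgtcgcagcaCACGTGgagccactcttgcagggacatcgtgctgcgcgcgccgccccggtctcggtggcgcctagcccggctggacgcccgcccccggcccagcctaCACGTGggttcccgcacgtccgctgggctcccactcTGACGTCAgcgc
The G6pc stretch is chr11:101367466-101367561 on the plus strand and ends with the D-box in capitals, which overlaps an exon annotated in GENCODE M21. The deposited coordinates start G6pc at 101367561, the last base of this stretch.
G6pc: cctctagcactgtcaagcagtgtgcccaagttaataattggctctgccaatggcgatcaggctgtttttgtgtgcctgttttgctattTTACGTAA

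The first question the design poses is which of these genes differ between the early light and the early dark phase. In WT liver, glycogen synthase, its activator subunit, the glucose-6-phosphate transporter and the liver pyruvate kinase were all higher at ZT14. By edgeR's quasi-likelihood test at an adjusted p below 0.05, 7 of the 37 members rose from ZT2 to ZT14, 1 fell and 29 were not called. Of all 15244 genes tested, 9.17% were called in this contrast, 4.85% higher and 4.32% lower. The members' median log2 fold change was 0.22, beside 0.0051 over all genes, and 30 of 37 were positive. Marker sums of other cells also differed between the times. The 7 endothelial markers summed to 278 to 298 CPM at ZT2 and 252 to 276 at ZT14 in WT, and to 287.6 to 289.5 and 247.8 to 268.3 in TG. The 5 acinar pancreas markers, of which Cpa1 and Pnlip were at 0 in all libraries, summed to 19.14 to 24.35 and 9.61 to 11.74 CPM in WT, and to 11.1 to 21.66 and 4.89 to 10.3 in TG. Only 1 of these 5 markers had reads in all 12 libraries, so their sum is not shown to reflect pancreas cells. The 6 erythroid markers summed to 277 to 350 and 238 to 270 CPM in WT and overlapped in TG. Their part in the members' time changes was not tested.

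In TG liver, 9 members rose, 1 fell and 27 were not called, where 12.2% of all genes were called, 6.70% higher and 5.52% lower. The members' median log2 fold change was 0.15, beside 0.0055 over all genes, and 25 of 37 were positive. The count of 10 rests on single TG libraries: it was 5 without replicate 2 at ZT2, 6 without replicate 3 at ZT2, 5 without replicate 1 at ZT14 and 4 without replicate 2 at ZT14. Both genotypes called 6 members in the same direction (Gpi1, Gys2, Pfkfb1, Pklr, Ppp1r3b and Slc37a4): 6 of the 8 called in WT, or 75.0%, and 6 of the 10 called in TG. The 2 others in WT were Eno1 and Ldha, and the 4 others in TG were Pfkfb2, Pfkfb3, Pfkl and Ppp1r3c. No matching overlap over all genes was set beside these counts. Whether the time change differs by genotype was tested as an interaction.

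**Figure D2:**
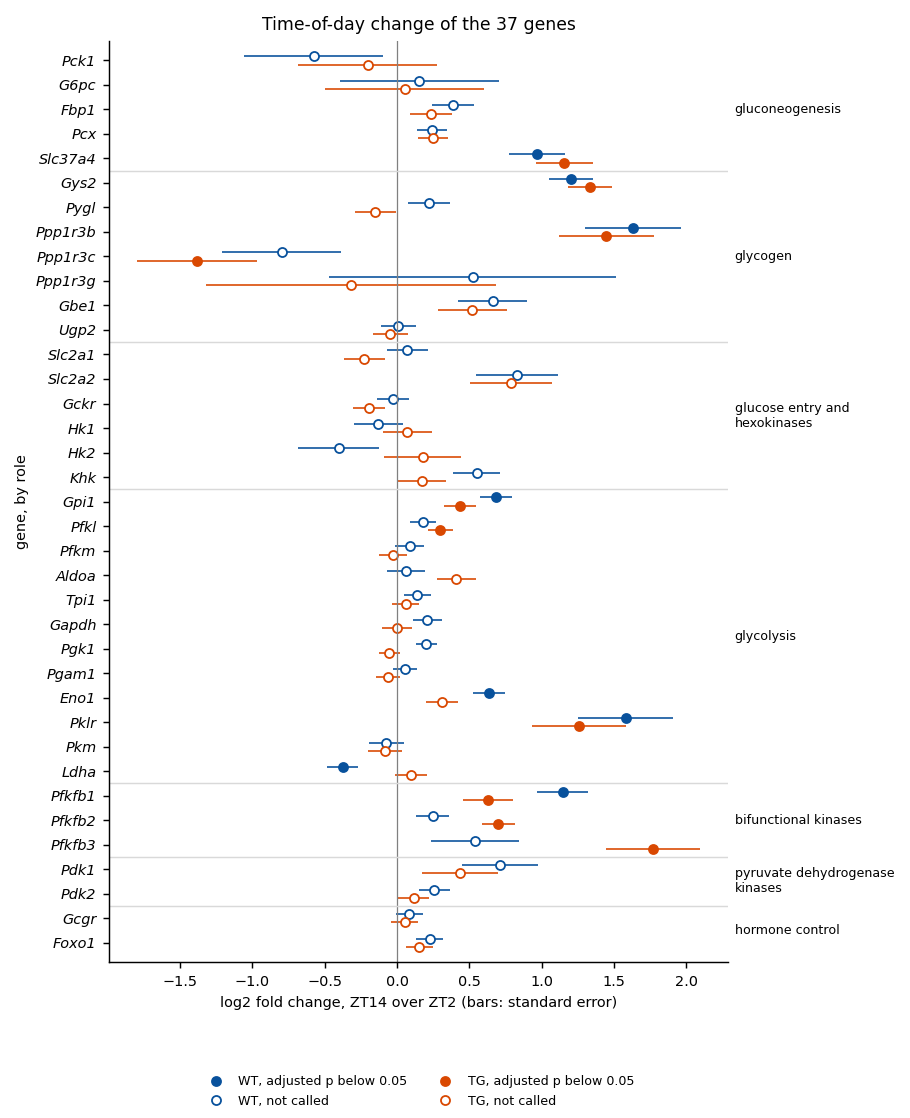
Log2 fold change of each gene from ZT2 to ZT14 in WT (blue) and TG (orange), with standard errors, in the order of the roles given at the right; filled points passed an adjusted p below 0.05. Gys2, Ppp1r3b, Pklr, Pfkfb1, Slc37a4 and Gpi1 are filled on the right in both genotypes, and Ppp1r3c in TG and Ldha in WT are filled on the left.

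Of the 5 gluconeogenesis genes, 1 was called in each genotype. Slc37a4 (ENSMUSG00000032114, chr9:44398176-44402963) encodes the transporter that carries glucose 6-phosphate into the endoplasmic reticulum, where it is cleaved to glucose. It had 112, 124 and 97.6 CPM in WT at ZT2 and 233, 196 and 221 at ZT14, and 110, 57.4 and 96.1 and 207, 215 and 165 CPM in TG at the same times. All ZT14 libraries lay above all ZT2 libraries. The log2 fold change was 0.96 ± 0.19 in WT (adjusted p = 0.00814) and 1.16 ± 0.20 in TG (adjusted p = 0.00259, edgeR's quasi-likelihood test).

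The catalytic partner of that transporter, G6pc, and Pck1, the gene most often used as a gluconeogenesis readout, were not called. At ZT2 Pck1 had 1277, 2187 and 674 CPM in WT and 1875, 1376 and 983 CPM in TG; at ZT14 the values were 762, 733 and 1281 CPM and 663, 786 and 2227 CPM. G6pc had 369, 548 and 121 CPM, 260, 265 and 372 CPM, 193, 371 and 590 CPM and 127, 283 and 520 CPM in the same order of groups. Both genes overlapped between every pair of groups and the highest library of a group exceeded the lowest 1.43-fold to 4.52-fold for G6pc and 1.75-fold to 3.36-fold for Pck1. Their spread within groups, as the SD of log2(CPM + 1), was 0.88 for G6pc and 0.72 for Pck1, above 99.6% and 99.3% of the genes tested, while the median over the 37 members was 0.18 and over all genes 0.17. The intron reads of both genes also varied between libraries, in the library order of the whole-gene counts in some groups and not in others. In CPM of all intron reads, Pck1 had 725, 1281 and 114 in WT at ZT2, in the same order, but 346, 402 and 1272 in TG at ZT2, in the reverse order. Fbp1 (log2 fold change 0.39 ± 0.14 in WT, adjusted p = 0.124, and 0.23 ± 0.14 in TG, adjusted p = 0.344) and the pyruvate carboxylase Pcx (0.24 ± 0.10, adjusted p = 0.186, and 0.25 ± 0.10, adjusted p = 0.144) were not called by edgeR.

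Of the 7 glycogen genes, 2 rose in WT, while 2 rose and 1 fell in TG. Gys2 (ENSMUSG00000030244, chr6:142422613-142473109), the liver glycogen synthase, had 83.2, 119 and 94.1 CPM in WT at ZT2 and 259, 202 and 222 at ZT14. TG libraries had 91.1, 77.7 and 99.2 CPM and 199, 214 and 262 CPM. The gene more than doubled in both genotypes with no overlap between times, at log2 fold changes of 1.20 ± 0.15 in WT (adjusted p = 0.000454) and 1.33 ± 0.15 in TG (adjusted p = 0.000212, edgeR's quasi-likelihood test).

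Ppp1r3b (ENSMUSG00000046794, chr8:35375739-35388139), which brings protein phosphatase 1 to glycogen and so activates the synthase, had 159, 284 and 98.2 CPM in WT at ZT2 and 618, 432 and 621 at ZT14. In TG it had 175, 129 and 173 and 463, 545 and 292 CPM. Times did not overlap in either genotype, although TG at ZT14 replicate 3, a library that stands apart, was the lowest at that time. Its log2 fold change was 1.63 ± 0.33 in WT (adjusted p = 0.00883) and 1.45 ± 0.33 in TG (adjusted p = 0.0139, edgeR). In TG that call did not hold without replicate 2 of either time.

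Ppp1r3c (ENSMUSG00000067279, chr19:36731737-36736653), another targeting subunit of the same phosphatase, went the other way. It had 105, 70.4 and 84.1 CPM in TG at ZT2 and 23.3, 30.2 and 46.0 at ZT14, with no overlap, and 38.0, 102 and 34.2 and 38.1, 18.6 and 43.3 CPM in WT, where WT at ZT2 replicate 2 stood above the rest. The log2 fold change was -1.38 ± 0.42 in TG (adjusted p = 0.0480) and -0.80 ± 0.41 in WT (adjusted p = 0.277, edgeR). The TG call is close to the threshold and did not hold when any of 7 single libraries was left out. The third subunit, Ppp1r3g, had 0 to 0.57 CPM, 65 reads in all 12 libraries together, and no direction can be read from it. The glycogen phosphorylase Pygl, the branching enzyme Gbe1 and the UDP-glucose pyrophosphorylase Ugp2 had log2 fold changes of 0.22, 0.66 and 0.01 in WT and -0.15, 0.52 and -0.05 in TG, none called.

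None of the 6 genes of sugar entry and phosphorylation was called with time by edgeR, where 9.17% of all genes were called in WT and 12.2% in TG. An unadjusted p below 0.05 was reached by 2 in WT and 1 in TG, and the share of all genes at that level is not given here. The nearest was Khk in WT, with 306, 339 and 289 CPM at ZT2 and 446, 449 and 473 at ZT14 and no overlap (log2 fold change 0.55 ± 0.16, adjusted p = 0.0559). DESeq2 called it (adjusted p = 0.0160). Slc2a2, the low-affinity glucose transporter GLUT2 of hepatocytes, had log2 fold changes of 0.83 ± 0.28 in WT (adjusted p = 0.0917) and 0.79 ± 0.28 in TG (adjusted p = 0.0916). DESeq2 called Slc2a2 in both genotypes. Only 40.3% of Slc2a2 reads were unique. In unique reads its log2 fold changes were 0.78 in WT (adjusted p = 0.110) and 0.76 in TG (adjusted p = 0.103, edgeR). In TG at ZT2 its replicate 2, which stands apart, had 81.6 CPM against 178 and 197 in the others. Gckr, the nuclear inhibitor of the liver hexokinase, had log2 fold changes of -0.03 in WT and -0.19 in TG.

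**Figure D3:**
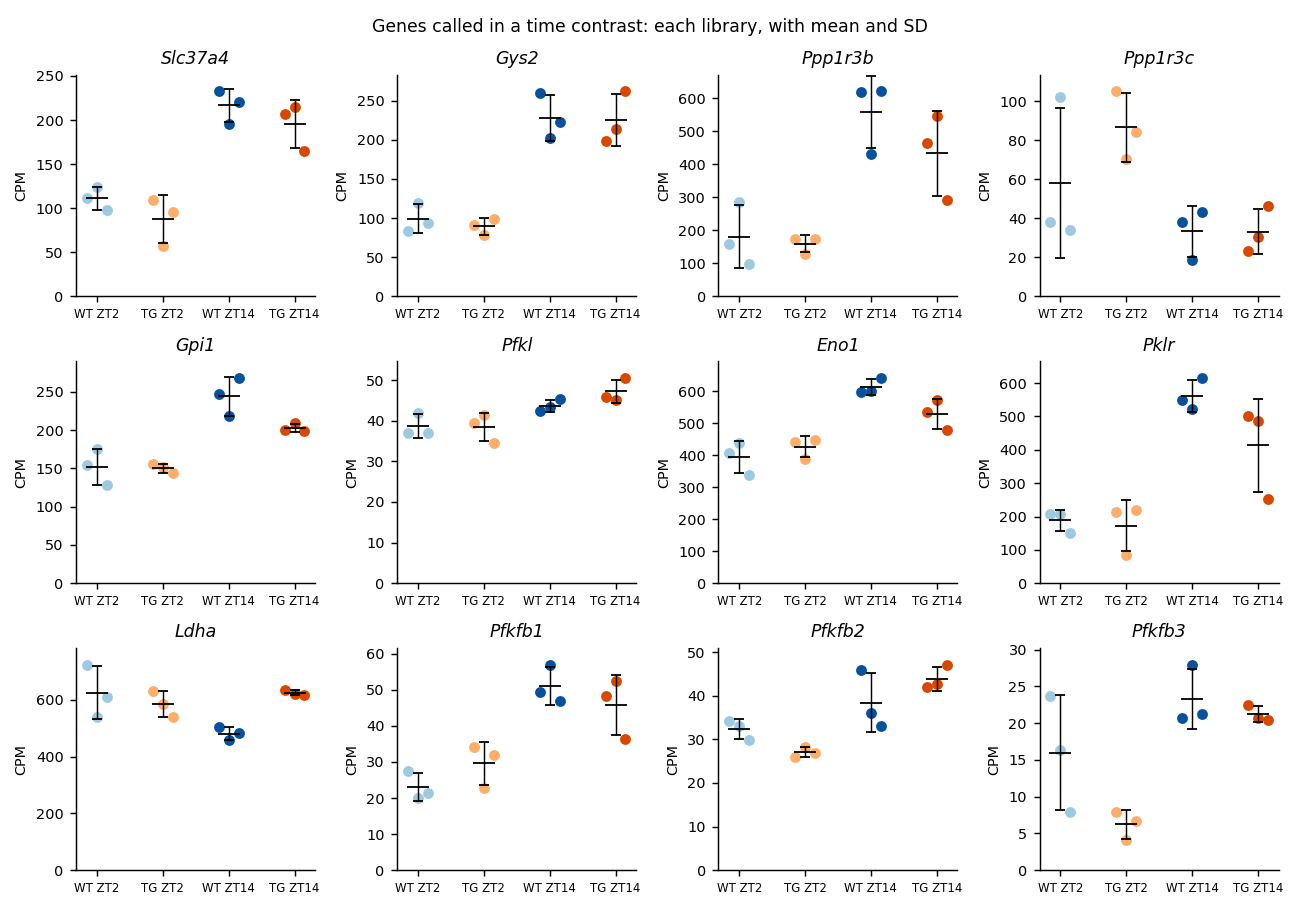
CPM in every library of the 12 genes called in a time contrast, with the mean and SD of each group of 3 (black). Ppp1r3b, Pklr and Gys2 separate ZT14 from ZT2 in both genotypes, and the TG library at ZT14 with the lowest Pklr, 252 CPM, is replicate 3.

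Glycolysis proper held the largest number of members, 12. Of these, 3 rose and 1 fell in WT, and 3 rose in TG. Pklr (ENSMUSG00000041237, chr3:89136142-89146784) encodes the liver pyruvate kinase of the last step and carries the carbohydrate response element shown above. It had 206, 208 and 151 CPM in WT at ZT2 and 549, 522 and 616 at ZT14, with no overlap. TG libraries had 213, 84.2 and 220 and 502, 486 and 252 CPM, also without overlap, with both libraries that stand apart lowest in their group. The log2 fold change was 1.58 ± 0.33 in WT (adjusted p = 0.00957) and 1.26 ± 0.32 in TG (adjusted p = 0.0245, edgeR). In TG the call did not hold without TG at ZT14 replicate 1 or replicate 2. Pkm, which encodes the pyruvate kinase of most other tissues, had log2 fold changes of -0.07 and -0.08 and was not called.

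Gpi1 (ENSMUSG00000036427, chr7:34201330-34230336), glucose-6-phosphate isomerase, had 154, 175 and 128 CPM in WT at ZT2 and 246, 218 and 268 at ZT14, and 155, 151 and 144 and 201, 209 and 198 in TG. No ZT14 library fell into the ZT2 range of its genotype. The log2 fold change was 0.68 ± 0.11 in WT (adjusted p = 0.00218) and 0.43 ± 0.11 in TG (adjusted p = 0.0235, edgeR), and the TG call did not hold when any of 5 single TG libraries was left out. Eno1 (ENSMUSG00000063524, chr4:150236721-150248879), enolase 1, rose in WT from 408, 438 and 339 to 598, 601 and 643 CPM, log2 fold change 0.64 ± 0.11 (adjusted p = 0.00349). In TG it had 442, 389 and 450 and 536, 572 and 478 CPM, apart but not called (0.31 ± 0.11, adjusted p = 0.0931, edgeR). Only 48.7% of Eno1 reads were unique.

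The member that fell in WT was Ldha (ENSMUSG00000063229, chr7:46841475-46855627), which turns pyruvate into lactate. It had 724, 541 and 611 CPM at ZT2 and 505, 457 and 482 at ZT14 in WT, and 631, 585 and 539 and 635, 621 and 619 in TG. The WT times did not overlap, but the call sat at the threshold (log2 fold change -0.38 ± 0.11, adjusted p = 0.0496, edgeR) and was absent when any one of 11 of the 12 libraries was left out. Pfkl, the liver phosphofructokinase, rose in TG from 39.5, 41.4 and 34.5 to 45.9, 45.2 and 50.6 CPM (0.30 ± 0.09, adjusted p = 0.0440, edgeR), against 36.9, 42.0 and 36.9 and 42.4, 43.4 and 45.3 CPM in WT, where the times were also apart (0.18 ± 0.09, adjusted p = 0.249). That TG call is equally slight and held when WT at ZT2 replicate 2 was left out but for none of the other 11. Tpi1, Gapdh, Pgk1 and Pgam1, the enzymes in the middle of the pathway, had log2 fold changes between 0.05 and 0.21 in WT and between -0.06 and 0.06 in TG, none called.

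All 3 bifunctional kinases, which make and break the phosphofructokinase activator fructose 2,6-bisphosphate, rose in TG, and 1 rose in WT. Pfkfb1 (ENSMUSG00000025271, chrX:150588229-150643878), the liver isoform, had 27.5, 20.1 and 21.5 CPM in WT at ZT2 and 49.3, 57.0 and 46.8 at ZT14, and 34.2, 22.8 and 31.8 and 48.4, 52.5 and 36.5 CPM in TG. Times were apart in both genotypes, at 1.14 ± 0.17 (adjusted p = 0.00147) in WT and 0.63 ± 0.17 (adjusted p = 0.0324) in TG by edgeR. The TG call did not hold when replicate 2 or 3 at ZT2, or replicate 1 or 2 at ZT14, was left out of TG.

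Pfkfb3 (ENSMUSG00000026773, chr2:11471433-11554077), the inducible isoform with high kinase activity, had 23.7, 16.4 and 7.96 CPM at ZT2 and 20.7, 28.0 and 21.2 CPM at ZT14 in WT. TG libraries had 7.96, 4.07 and 6.63 CPM and 22.5, 20.7 and 20.5 CPM. The ZT14 groups overlapped, while the ZT2 libraries ranged from 4.07 to 23.7 CPM, with TG low and WT spread out. Its time change was 1.77 ± 0.32 in TG (adjusted p = 0.00417), the largest of any member there, and 0.54 ± 0.30 in WT (adjusted p = 0.320, edgeR). Pfkfb2, the heart-type isoform, had 34.2, 33.0 and 29.9 and 46.0, 36.1 and 33.1 CPM in WT and 26.0, 28.3 and 26.8 and 42.1, 42.6 and 47.2 in TG. The WT times overlapped (0.25 ± 0.11, adjusted p = 0.210) and the TG times did not (0.70 ± 0.11, adjusted p = 0.00196, edgeR). Of Pfkfb2 reads, 68.1% lay in introns and 11.2% were unique.

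The remaining regulators were not called with time. Pdk1 and Pdk2, kinases that shut off pyruvate dehydrogenase, had log2 fold changes of 0.71 and 0.26 in WT and 0.43 and 0.12 in TG. The glucagon receptor Gcgr and the insulin-restrained transcription factor Foxo1 had 0.09 and 0.23 in WT and 0.05 and 0.15 in TG.

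The test of whether the time change depended on genotype, the interaction, called 0 of the 37 members by edgeR, where 0.00656% of all genes were called. At an unadjusted p below 0.05 it held 4 members, against 5.98% of all genes, and DESeq2 called 0. These were Ldha (log2 difference of TG less WT 0.47 ± 0.15), Pfkfb2 (0.46 ± 0.16), Pfkfb3 (1.23 ± 0.44) and Pgk1 (-0.26 ± 0.10), with adjusted p-values of 0.735 to 0.792. Genes called in only 1 genotype, such as Eno1 in WT or Pfkfb3 in TG, are therefore not shown to differ between genotypes.

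The second question is whether E4BP4 overexpression altered these genes. By edgeR 0 of 37 members were called at ZT2, 0 at ZT14 and 0 over both times together, where 0.0722%, 0.0853% and 0.144% of all genes were called. At an unadjusted p below 0.05 there were 3 members at ZT2 (7.56% of all genes), 8 at ZT14 (6.91%) and 6 over both times (8.82%). DESeq2 called 1, 0 and 0. The median log2 fold change of the members was -0.01 at ZT2 and -0.12 at ZT14, beside -0.003 and 0.0075 over all genes. Groups did not overlap for 4 members at ZT2, 2 higher and 2 lower in TG, where 12.1% of all genes did not overlap, 6.25% higher and 5.86% lower. At ZT14 there were 12 such members, 4 higher and 8 lower in TG, where 12.4% of all genes did not overlap, 6.12% higher and 6.32% lower. The libraries of these groups also enter the time contrasts above.

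**Figure D4:**
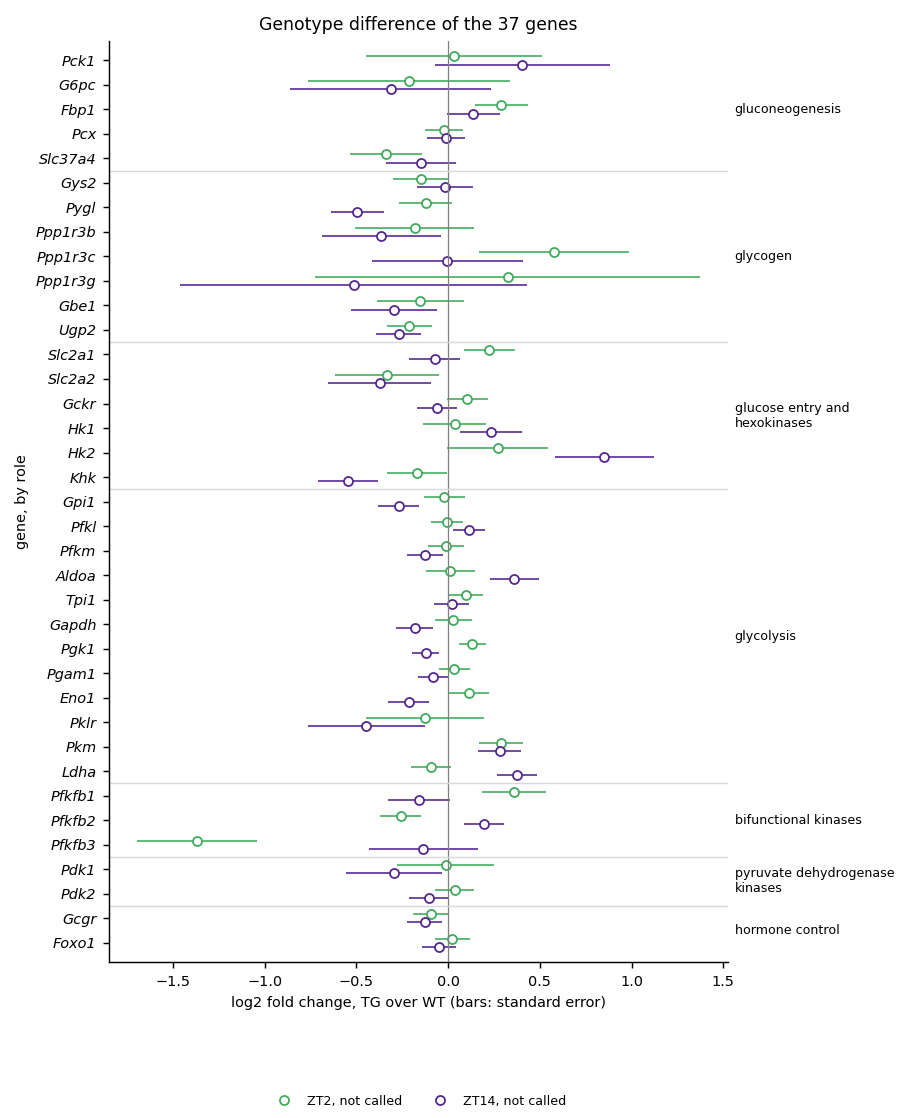
Log2 fold change of TG over WT for each gene at ZT2 (green) and ZT14 (purple), with standard errors; open points mark that no gene passed an adjusted p below 0.05. Pfkfb3 at ZT2 lies farthest left at -1.37, and Hk2 at ZT14 farthest right at 0.85.

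At ZT2 the smallest p was that of Pfkfb3, whose 12 values are given above. The highest TG library and the lowest WT library were 7.96 CPM each at this rounding and are apart only beyond it. The log2 fold change was -1.37 ± 0.33 (adjusted p = 0.333, edgeR). DESeq2 (adjusted p = 0.00533), the absence of a filter on low counts (adjusted p = 0.0164) and the omission of replicate 3 of WT at ZT2 (adjusted p = 0.0232) each called it, with 57, 43 and 22 genes called in all. Next were Pkm (19.7, 20.1 and 23.5 CPM in WT, 24.3, 30.3 and 22.7 in TG), Pfkfb2, Pfkfb1 and Fbp1 (638, 693 and 579 CPM in WT, 741, 951 and 642 in TG). Of these, only Pfkfb2 had groups that did not overlap, with TG lower. Their log2 fold changes were 0.29 ± 0.12, -0.26 ± 0.11, 0.36 ± 0.18 and 0.29 ± 0.14, with adjusted p-values of 0.630 to 0.683 by edgeR.

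At ZT14 the smallest p-values belonged to genes on both sides. Ldha, whose ZT14 values are given above, was higher in every TG library (log2 fold change 0.38 ± 0.11, adjusted p = 0.525, edgeR). Pygl, which releases glucose units from glycogen, had 526, 588 and 614 CPM in WT and 404, 489 and 333 in TG, all TG libraries lower (-0.49 ± 0.14, adjusted p = 0.525). Khk had 446, 449 and 473 CPM in WT and 297, 386 and 253 in TG, again all lower (-0.55 ± 0.16, adjusted p = 0.534). Neither gene was apart at ZT2, where Pygl had 495, 527 and 461 CPM in WT and 487, 377 and 498 in TG, and Khk in TG had 316, 212 and 302 CPM. At both times the TG library that stands apart was the lowest for both Pygl and Khk. Gpi1, whose ZT14 values are given above, was also lower in every TG library (-0.27 ± 0.11, adjusted p = 0.679, edgeR). So were Eno1 (-0.22 ± 0.11), Slc2a2 (-0.37 ± 0.28) and Pklr (-0.45 ± 0.32), with adjusted p-values of 0.716 to 0.802 by edgeR.

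Hk2 had 2.05, 1.37 and 1.37 CPM in WT and 2.55, 2.36 and 3.70 in TG at ZT14 (0.85 ± 0.27, adjusted p = 0.584), and 1.69, 1.84 and 2.79 and 2.25, 3.08 and 2.30 CPM at ZT2. Aldoa, the aldolase of muscle and most other tissues, had 90.3, 70.4 and 73.7 CPM in WT and 91.8, 97.3 and 112 in TG at ZT14 (0.36 ± 0.13, adjusted p = 0.638, edgeR). The ZT14 groups were apart for both genes and for Pkm (22.3, 18.8 and 19.0 CPM in WT, 23.0, 23.9 and 26.1 in TG), with TG higher. These 3 are not the main liver isoforms of their enzymes, and marker sums of other cells are given beside them, of which only the erythroid sum was apart. The 7 stellate cell and fibroblast markers summed to 160 to 195 CPM in WT and 173 to 244 in TG at ZT14, and the 6 erythroid markers to 238 to 270 in WT and 291 to 415 in TG. The 7 Kupffer cell markers summed to 284 to 349 and 287 to 379 CPM, the 7 endothelial markers to 252 to 276 and 248 to 268, and the 5 cholangiocyte markers to 50.1 to 54.4 and 40.5 to 69.8. Their part in the result was not tested. The 5 skeletal muscle markers summed to at most 0.374 CPM in any library.

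Over both times the smallest p-values were those of Pfkfb3 (-0.75 ± 0.22), Pkm (0.28 ± 0.08), Khk (-0.36 ± 0.12), Pygl (-0.31 ± 0.10), Hk2 (0.56 ± 0.19) and Ugp2 (-0.24 ± 0.09), with adjusted p-values of 0.402 to 0.480 by edgeR. Ugp2, which makes the UDP-glucose used for glycogen, had 263, 288 and 207 CPM in WT and 225, 217 and 211 in TG at ZT2, and 259, 246 and 257 and 210, 241 and 182 at ZT14. The ZT14 groups were apart and the ZT2 groups overlapped. With 3 libraries a group, G6pc, the member with the D-box shown above, had log2 fold changes of -0.21 ± 0.55 at ZT2 and -0.31 ± 0.55 at ZT14, errors larger than the differences themselves.

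Pgk1 took opposite sides at the 2 times. Its CPM at ZT2 was 307, 309 and 281 in WT and 331, 332 and 320 in TG, all TG libraries higher, and at ZT14 342, 338 and 351 in WT and 313, 329 and 305 in TG, all TG libraries lower. Only 12.8% of these reads were unique, and in unique reads the ZT14 groups overlapped, at 55.8, 48.3 and 56.3 CPM in WT and 49.4, 50.6 and 45.7 in TG. Neither difference was called (0.13 ± 0.07 and -0.12 ± 0.07, adjusted p = 0.716 and 0.763, edgeR). Pgk1 had the smallest spread within groups of the 37 members.

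Because the deposited tables count exon and intron reads apart, a change in spliced RNA can be set beside that in unspliced RNA of the same gene. Intron reads come mainly from precursor RNA, and in a poly(A) library they are few. Of the 36 members with enough reads of both kinds, intron reads alone called 3 higher from ZT2 to ZT14 in WT (1.93% of 12380 genes) and 7 higher and 1 lower in TG (5.64%). The test that exon and intron reads changed by different amounts called 1 member in WT, where 1.00% of 10782 genes were called, and 4 in TG, where 2.55% were called.

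Pgk1 showed the widest gap. Its intron CPM was 6.01, 14.3 and 6.01 in WT at ZT2 and 30.9, 23.5 and 20.7 at ZT14, and 6.36, 3.43 and 5.79 and 35.2, 26.1 and 25.8 in TG. In reads, these were 7 to 24 per library at ZT2 and 51 to 86 at ZT14, and all but 1 of them were unique. Of 80179 Pgk1 exon reads, only 9805 were unique. Exon reads had a log2 fold change of 0.19 ± 0.07 in WT and -0.08 ± 0.07 in TG, beside 1.54 ± 0.32 (adjusted p = 0.0217) and 2.48 ± 0.34 (adjusted p = 0.00181, edgeR) for intron reads. The exon change less the intron change was -1.35 ± 0.32 in WT (adjusted p = 0.04999, at the threshold) and -2.55 ± 0.34 in TG (adjusted p = 0.000489, edgeR). The WT call did not hold with another scaling or without any one of 10 libraries, whereas the TG call held in every setting run.

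Gapdh, the glyceraldehyde 3-phosphate dehydrogenase often used as a reference gene, differed in the same direction in TG. Its intron CPM was 36.0, 42.2 and 29.1 in WT at ZT2 and 63.2, 66.2 and 58.0 at ZT14, and 23.7, 27.0 and 29.9 and 49.1, 67.8 and 65.5 in TG, with no overlap between times. Gapdh overlaps Iffo1 on the other strand, which held 2687 reads over the 12 libraries, against 1313 intron reads of Gapdh. Whether Iffo1 reads enter that count was not tested. Of 78010 Gapdh exon reads, 8176 were unique. Exon reads had log2 fold changes of 0.20 ± 0.10 and -0.03 ± 0.10, and the exon change less the intron change was -0.60 ± 0.21 in WT (adjusted p = 0.234) and -1.19 ± 0.22 in TG (adjusted p = 0.00590, edgeR). Khk was called in TG in the same direction (-1.41 ± 0.34, adjusted p = 0.0342, edgeR), but not when any of 6 single TG libraries was left out.

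Gys2 was the opposite case. Its exon reads rose by 1.31 ± 0.15 in WT and 1.46 ± 0.15 in TG, but intron reads had -0.12 ± 0.36 and -0.34 ± 0.36. In WT the intron CPM of Gys2 was 46.0, 198 and 93.9 at ZT2 and 91.9, 86.8 and 131 at ZT14. In TG it was 95.9, 100 and 123 at ZT2 and 93.7, 86.9 and 71.9 at ZT14. The WT times overlapped, and in TG all ZT14 libraries lay below all ZT2 libraries. The exon change less the intron change was 1.80 ± 0.33 in TG (adjusted p = 0.00635) and 1.27 ± 0.33 in WT (adjusted p = 0.0856, edgeR). Pfkfb3, Ppp1r3b and Ppp1r3c were called in intron reads in TG with the sign of their exon change. Their intron log2 fold changes were 1.84, 1.60 and -2.58, beside exon changes of 1.74, 1.42 and -1.38. The Ppp1r3c value rests on 18, 6 and 13 intron reads in TG at ZT2 and 4, 3 and 1 at ZT14. Eno1, Khk and Tpi1 were also called higher in intron reads in TG (1.71, 1.46 and 1.09), beside smaller exon changes of 0.29, 0.03 and 0.04.

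**Figure D5:**
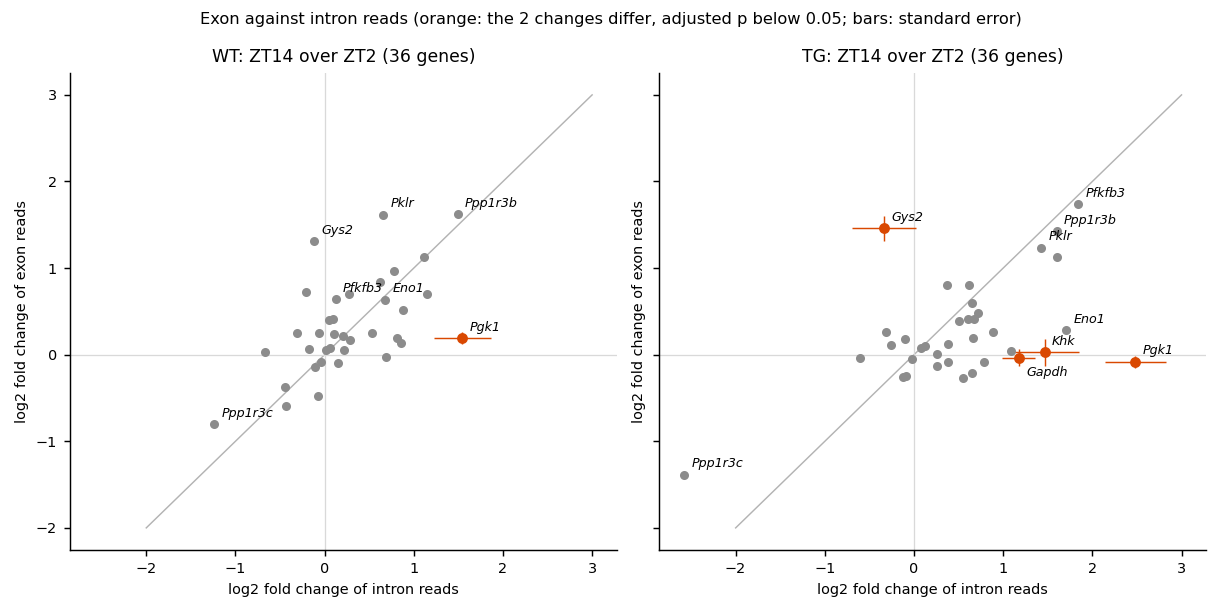
Log2 fold change from ZT2 to ZT14 of exon reads (vertical) against intron reads (horizontal) for 36 genes in WT (left) and TG (right); the grey diagonal marks equal change, and orange points with standard errors have exon and intron changes that differ at an adjusted p below 0.05. Pgk1 lies far to the right of the diagonal in both panels, and Gys2 above it.

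Some libraries were the lowest or highest of their group for many members. These ranks were not counted over all genes and do not measure the size of the spread. WT at ZT2 replicate 3 was the lowest of its group for 26 of the 37 members and replicate 2 the highest for 22. The libraries that stand apart, replicate 2 of TG at ZT2 and replicate 3 of TG at ZT14, were each the lowest of their group for 18. Each of them was the lowest of its group for Pklr, Slc37a4, Slc2a2, Ppp1r3b, Pygl, Gbe1, Khk and Pdk1, among others, and the highest for Fbp1, Pkm, Aldoa and Hk2, among others. Without these 2 libraries together, 13 members were called in WT and 8 in TG with time, and 0 between genotypes at either time. The share of all genes called in that setting is not given here, so these counts are not a result about the members.

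Of a list of 123 other genes of these pathways and their control, 119 could be tested. With time, 21 rose and 4 fell in WT, and 16 rose and 5 fell in TG, by edgeR's quasi-likelihood test, with median log2 fold changes of 0.13 and 0.14, beside 0.0051 and 0.0055 over all genes, of which 9.17% and 12.2% were called. No such gene was called between genotypes by edgeR (0 at ZT2 and 0 at ZT14); an unadjusted p below 0.05 was reached by 9 and 13 of them, beside 7.56% and 6.91% of all genes. Sugar transport and fructose genes had the most calls in WT, 6 higher and 1 lower of 13 tested, and 4 higher and 1 lower in TG. Among them Tkfc, the triokinase that follows Khk, rose by 1.19 ± 0.20 in WT (adjusted p = 0.00236) and 0.96 ± 0.20 in TG (adjusted p = 0.00779). Glyctk, the glycerate kinase, rose by 0.39 and 0.50, and Galt, a galactose enzyme, fell in both (-0.45 in WT and -0.72 in TG). Slc2a4, the insulin-responsive transporter GLUT4, had 0 to 2 reads in every ZT2 library, against 27, 40 and 19 reads in WT and 18, 11 and 17 in TG at ZT14.

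Gpt2, which converts alanine to pyruvate, rose by 0.96 ± 0.11 in WT (adjusted p = 0.000218) and 0.76 ± 0.11 in TG (adjusted p = 0.000879, edgeR), and Gys1, the muscle-type glycogen synthase, by 0.78 and 0.96. H6pd, the hexose-6-phosphate dehydrogenase of the endoplasmic reticulum, fell by 1.04 in WT and by 0.79 in TG. Pgd of the pentose phosphate pathway (0.61), Foxo3 (0.65) and the mitochondrial dicarboxylate carrier Slc25a10 (0.62) rose in WT and had 0.05, 0.23 and 0.28 in TG, not called. Tigar, a fructose bisphosphatase that counters Pfkfb3, rose in TG (0.88, adjusted p = 0.00210, edgeR) and had 0.36 in WT, not called.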

How the data were processed

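Poly(A) RNA libraries of 12 liver samples were deposited with 1 table each. Per the file headers, the authors' tables give read counts per gene (total, unique, exon, exon-exon and intron reads) and TPM, which the authors scaled to length and depth. No source used here names the aligner, its version or the use of strand. Builds mm10 and GRCm38 appear in the submitters' processing notes. Deposited total gene counts were fitted with edgeR 4.0.16 in R 4.3.3 (filterByExpr with a minimum count of 10, TMM, glmQLFit and glmQLFTest over all 12 samples in 4 groups). This kept 15244 genes, all 37 members among them. Adjusted p-values are Benjamini-Hochberg over all genes tested, and SE is the log2 fold change divided by the root of F. Exon against intron changes were tested in 1 edgeR fit of both kinds of reads with the sample as a block, and the procedure was tested on simulated data. Alternatives included RLE scaling, no filter, DESeq2 1.42.0, other kinds of reads, a replicate block and each library left out. TPM were only described. Counting error was small at 16035121 to 23981021 reads per library, except for intron reads and the lowest genes.

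The members and lists were chosen with earlier results of these data known. Values in every sample are given for members called in any contrast or with the 6 smallest p in a genotype contrast, and for Nfil3. Of the other pathway genes, up to 12 called with time are named, by the smaller p, and 1 of these is not reported here; Pck1, G6pc and a few uncalled members are added after their values were seen.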

Additional observations from a re-analysis of the deposited data

Results flagged for a closer look

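Pgk1 was higher in all 3 TG libraries than in all 3 WT libraries at ZT2 and lower in all 3 at ZT14, so that the genotype difference changed sign between the times. The difference of the genotype effects, ZT14 less ZT2, was -0.26 on the log2 scale (unadjusted p = 0.0303, adjusted p = 0.792 over all genes by edgeR's quasi-likelihood test), so it does not pass the correction. Each effect by itself is small, 1.10-fold at ZT2 and 1.09-fold at ZT14, and only 12.8% of Pgk1 reads were unique. In unique reads alone the ZT2 groups stayed apart (46.8, 47.6 and 43.2 CPM in WT, 49.6, 50.7 and 49.0 in TG), but the ZT14 groups overlapped (55.8, 48.3 and 56.3 CPM in WT, 49.4, 50.6 and 45.7 in TG).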

How the results depend on the processing

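Calls between genotypes at ZT14, over both times and in the interaction stayed at 0 members under every alternative run. At ZT2 the count was 1 (Pfkfb3) with no filter on low counts and 1 with DESeq2, and ranged from 0 to 1 when each library was left out. For time in WT the count was 3 from intron reads alone and 13 without both libraries that stand apart (TG: replicate 2 at ZT2, replicate 3 at ZT14), and leaving out each library gave 7 to 10. For time in TG leaving out each library gave 4 to 12 (5 and 6 without TG at ZT2 replicate 2 or 3, 5 and 4 without TG at ZT14 replicate 1 or 2). Gys2, Slc37a4, Pfkfb2 and Pfkfb3 were called in all of those. For the time contrasts with libraries left out, no share of all genes called is given beside the counts. The count of exon changes that differ from intron changes in WT was 0 with RLE size factors and 0 to 2 when each library was left out. Among values called in either fit, intron reads alone gave the opposite sign in 3 cases for a called gene: Gys2 in WT (-0.12 ± 0.36) and TG (-0.34 ± 0.36) and Gpi1 in WT (-0.21 ± 0.40), as log2 fold changes. These intron values are smaller than their errors. Gapdh (1.17) and Pgk1 (2.48) in TG were called in intron reads, while their whole-gene values, -0.001 ± 0.10 and -0.05 ± 0.07, are smaller than their errors. The cause of the differing signs was not tested. Over the single members, 4459 comparisons with an alternative kept their side of the threshold, 67 lost the call and 42 gained it. Of the 4459, 254 changed sign with neither value called, 61 of these with intron reads alone.

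With the replicate number of the labels as a block, the count in TG was 8 in place of 10 (without Pfkl and Ppp1r3c), and in WT it was 8 as before. The deviations of same-numbered samples from their group means had correlations of -0.324 to 0.197 over 18 pairs. Samples with different numbers were not compared and each group has 3, so this does not decide whether the numbers pair the samples. Low intron counts, such as 7 reads of Pgk1 in a library, limit the exon against intron comparison.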
